A study of Mus musculus with 2 samples.

Results

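The distance of each capture spot from the edge of the tissue was used to follow gene expression from the rim to the core of 2 B16.F10 melanoma sections. Depth was counted in steps on the hexagonal spot grid, from every spot under tissue to the nearest position without tissue or to the frame of the capture area, so that a spot touching either has depth 1. Spots with at least 5000 unique molecular identifiers (UMIs) were placed in 4 depth bins: 1 step, 2 to 3 steps, 4 to 6 steps, and 7 or more steps. This took in 5061 of the 5812 spots under tissue, 2671 of 3066 in WT tissue and 2390 of 2746 in the KO section. Expression was measured with Visium CytAssist, in which pairs of probes for each gene are ligated on fixed tissue and captured on barcoded spots that can each hold several cells. The tumours grew from B16.F10 cells, a melanoma line of the mouse that makes pigment, injected into mice aged 8 to 16 weeks that received no treatment, and were collected on day 15 and cut at 10 µm from paraffin blocks. The WT section is from a Csnk2b fl/fl mouse, whose floxed alleles are intact for lack of Cre. The KO section is from a Foxp3-Cre × CK2b-fl/fl mouse, in which Cre under the Foxp3 promoter deletes Csnk2b, the regulatory subunit of protein kinase CK2, in regulatory T cells while tumour and other host cells keep it. There was 1 section per genotype, so no comparison below carries a p-value, and intervals cover counting error only.

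Solid tumours are layered by what the host supplies from outside. Capsule and invading stroma, with fibroblasts and matrix, lie at the margin, and macrophages and T cells enter through vessels of the margin and may or may not reach the centre. Oxygen falls with distance from perfused vessels, and cells short of oxygen switch on hypoxia-inducible factor targets such as the carbonic anhydrase Car9 and the angiogenic factor Vegfa. Interferon gamma from activated lymphocytes induces chemokines, guanylate-binding proteins and antigen presentation genes in the cells around them.

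The bins held 668, 826, 604 and 573 spots from the outermost to the deepest in WT tissue and 374, 549, 505 and 962 in the KO section. Summed UMIs per bin ran from 10442742 to 40802589. From the outermost to the deepest bin, the median UMIs per spot were 22606, 30070.5, 34189.5 and 34421 in WT tissue. In the KO section they were 24339, 38603, 43817 and 43003.5. Levels below are CPM, a gene's UMIs scaled to the total of the bin, always listed from the outermost to the deepest bin. Intervals are exact 95% binomial intervals of the ratio of 2 bins, given both counts. The deepest spot was 16 steps in for the WT and 20 for the KO tumour. The sections differ in shape. The upper part of the WT section is broken into strips and islands, and its deepest bin lies almost wholly in the lower quadrants, with 0 used spots in the upper left and 11 in the upper right quadrant. Of the 668 outermost WT spots 271 lie in the upper left and 266 in the upper right quadrant. The KO section runs along the frame at the top, and 454 of its spots, 227 of them in the deepest bin, were nearer to the frame than to bare slide. What lies beyond the frame was not analysed here, so the true depth of those spots is at least the one counted. Of the 374 outermost KO spots 107 lie in the lower left and 166 in the lower right quadrant. The deepest KO spots lie mostly in the upper quadrants. Ratios of the deepest over the outermost bin therefore also compare different parts of each section. The 395 WT and 356 KO spots under 5000 UMIs lay at all depths and made up 16.9% of the outermost and 4.34% of the deepest WT spots, and 14.2% and 16.5% of those KO spots. Of the spot barcodes 2138 occur in both sections, since a barcode marks a fixed position on the slide. The melanocytic list (pigment and lineage genes) checked the tumour label: its 15 genes in the matrix summed to 50414, 44414, 48939 and 49884 CPM from rim to core in WT tissue and to 48639.9, 49022, 54885 and 61149 CPM in the KO section. Csnk2b was at 358, 383, 397 and 431 CPM in the WT bins and at 361, 391, 405 and 393 CPM in the KO bins. A sum over all cells does not check a deletion confined to regulatory T cells, whose Foxp3 had 32 UMIs in all WT bins together and 49 in the KO bins.

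**Figure D1:**
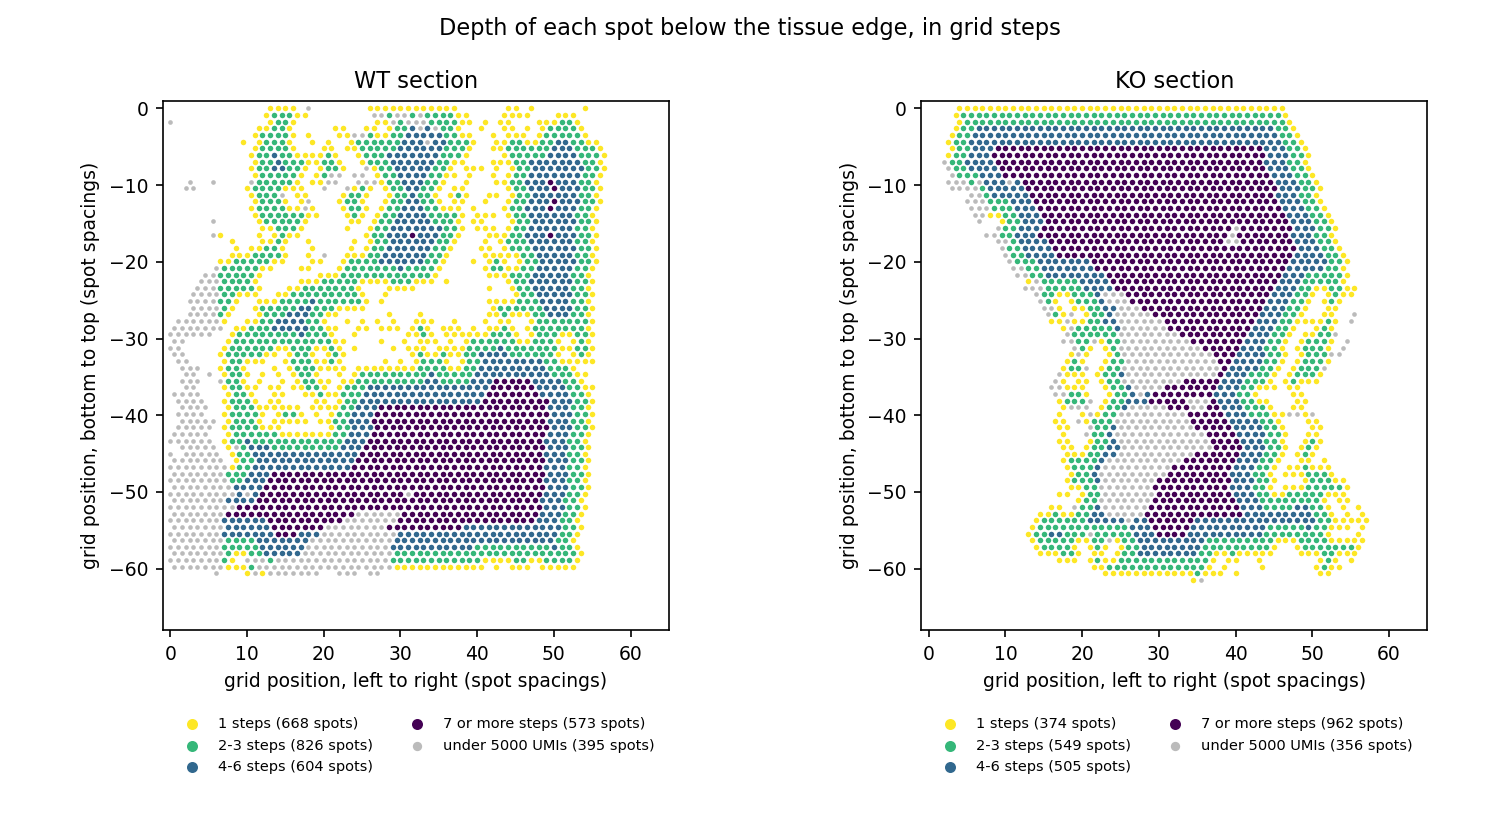
Depth of every spot in the WT (left) and KO (right) section, drawn at its grid position in spot spacings; colour gives the bin in grid steps from the edge and grey the spots under 5000 UMIs. Of the 573 deepest WT spots 201 and 361 sit in the lower left and lower right quadrant, while 400 and 329 of the 962 deepest KO spots sit in the upper left and upper right quadrant.

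A gene was called when it had at least 500 UMIs over the 4 bins of a section, its CPM moved the same way at each of the 3 steps between bins, and the outermost and deepest bins differed at least 2-fold. In the KO section 591 of 9976 genes tested fell with depth (5.92%) and 11 rose (0.11%). WT tissue gave fewer calls: 63 of 10166 fell (0.62%) and 10 rose (0.0984%). The median log2 ratio of deepest over outermost bin over all genes tested was 0.00 in WT and -0.01 in the KO section. Without a size limit, 2094 KO genes fell at each step (21.0%) and 1702 rose (17.1%), against 805 (7.92%) and 1208 (11.9%) WT genes. The KO falls were large: 355 of the 591 exceeded 4-fold and 64 exceeded 16-fold, and 387 had their largest drop at the last step, into the spots 7 or more steps deep. Of the 591, 561 were lower in the deepest bin in each of the 4 quadrants made by splitting the section at its median row and column. The genes were called on the sum of these quadrants, so this agreement is partly built in. No share over all genes tested stands beside it. Within the more pigmented spots, those at or above the section's median melanocytic share, 89 KO genes fell, and with rows above the median row left out 282. The WT falls were fewer and rested on part of the tissue: 5 genes fell without the upper left quadrant and 218 without the upper right. Of the 63 WT falls, 38 were lower at the core in both lower quadrants. With rows above the median row left out 41 WT genes fell, 4 of them among the 63. Of the 557 KO falls measured in both sections, 507 were also lower in the deepest WT bin, with a median log2 ratio of -0.69 there. Without the demand for steadiness, 624 KO genes (6.26%) and 370 WT genes (3.64%) were at least 2-fold lower in the deepest bin, and 14 in each (0.14% and 0.138%) at least 2-fold higher. No test of the difference between genotypes was possible.

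**Figure D2:**
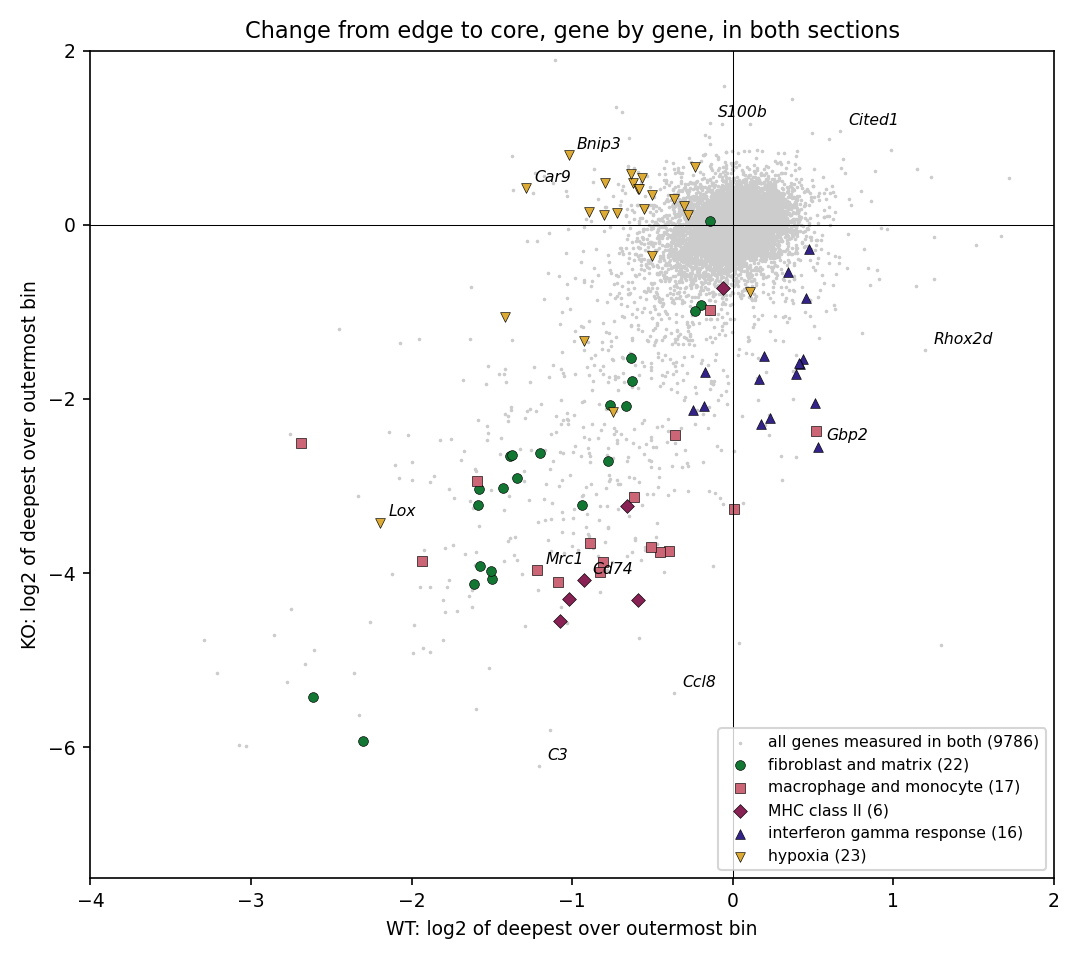
Each point is 1 gene with at least 500 UMIs in both sections; axes give the log2 ratio of the deepest over the outermost bin in the WT (horizontal) and KO (vertical) section, and colours mark members of 5 lists. Of the interferon gamma response genes 13 of 16 lie right of 0 and all lie below 0, and of the hypoxia genes most lie left of 0 and above 0; 5 genes of 9786 (Acta1, Car3, Cd163, Cd209f and Cd209g) lie beyond the left edge.

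The steepest fall of an immune list in the KO section was that of MHC class II, the molecules by which macrophages, dendritic cells and B cells show peptides to CD4 T cells. The summed level of the 8 genes was 1757, 782, 359 and 120.3 CPM, 14.6-fold lower at the core. Of 6 members measured 5 fell, with a median log2 ratio of -4.19, against the background of 5.92% of genes. A count over measured members favours genes abundant where they are high, so all members were also read: 8 of 8 were lower in the deepest bin. Cd74, the invariant chain that escorts class II through the cell, stood at 1040.2, 456, 206 and 61.5 CPM, a fall of 16.9-fold (95% interval 16.2 to 17.7). H2-Eb1, a class II beta chain (chromosome 17, 34305867 to 34316674, RefSeq positions in GRCm38.p6 here and below), fell 23.5-fold (95% interval 20.9 to 26.5), with 190.2, 81.9, 31.4 and 8.09 CPM. H2-Aa and H2-Ab1, the alpha and beta chains of I-A, fell 19.8-fold and 19.7-fold, and H2-DMa, a chain of the peptide-loading helper, 9.4-fold. H2-DMb1 was at 38.4, 28.7, 27.9 and 23.2 CPM and was not called. WT levels of the same list summed to 557, 582, 384 and 311 CPM, with a median log2 ratio of -0.79 that turned to 0.13 without the upper left and 0.036 without the lower right quadrant. Only H2-Eb1 fell there among 6 measured members, from 66.9 to 31.8 CPM, and it was higher at the core (log2 0.023) without the upper left quadrant. The WT sum was below the KO sum at the rim and above it at the core.

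Class II genes are switched on together through a conserved promoter module that includes the Y box CTGATTGG. The 250 bases before the RefSeq start of H2-Eb1 and H2-Aa, the 2 list members that fell most, show it in capitals on the gene's own strand (GRCm38.p6, the pair chosen after values were seen). They are H2-Eb1, chr17:34305617-34305866 on the plus strand, and H2-Aa, chr17:34287824-34288073 on the minus strand.
H2-Eb1: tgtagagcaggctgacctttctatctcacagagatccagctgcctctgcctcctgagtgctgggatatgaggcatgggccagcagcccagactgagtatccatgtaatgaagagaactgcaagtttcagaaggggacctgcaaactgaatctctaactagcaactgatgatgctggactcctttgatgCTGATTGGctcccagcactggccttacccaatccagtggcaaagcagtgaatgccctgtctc
H2-Aa: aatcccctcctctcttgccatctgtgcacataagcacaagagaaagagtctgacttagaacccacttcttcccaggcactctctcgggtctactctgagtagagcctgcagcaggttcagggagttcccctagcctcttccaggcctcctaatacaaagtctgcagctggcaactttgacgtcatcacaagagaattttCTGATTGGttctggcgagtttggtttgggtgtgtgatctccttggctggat
On either strand the Y box occurs in the same window of 3 of the 6 list members with a RefSeq promoter and in 3.83% of 32851 promoters. This describes the letters of the window and says nothing of which factor was bound.

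Macrophage genes fell nearly as steeply. Of 17 measured members of the macrophage and monocyte list, 16 fell in KO tissue, the median log2 ratio being -3.70, and all 21 members in the matrix were lower at the core. The list's sum was 4176, 2559.8, 1630.3 and 907 CPM. C1qa, a chain of complement C1q made mainly by macrophages, was at 649.8, 360.0, 183 and 44.3 CPM, a fall of 14.7-fold (95% interval 13.9 to 15.5), and its level 17 or more steps in was 6.18 CPM. Csf1r, the receptor for macrophage growth factor, fell 17.2-fold and Mrc1, the mannose receptor of resident and alternatively activated macrophages, 15.6-fold. Cd163, a haemoglobin scavenger receptor, fell 30.4-fold, and Trem2, a lipid receptor, 8.72-fold. Apoe, which melanoma cells can also express, was not called, at 1216, 864, 699.6 and 616 CPM. Several secreted products, picked out here after their values were seen, went the same way. Ccl8, a monocyte-attracting chemokine, fell 41.5-fold (95% interval 38.7 to 44.6), with 854, 456, 192 and 20.6 CPM, and the complement component C3 fell 74.6-fold (95% interval 64.9 to 86.3), with 377, 159.6, 40.7 and 5.05 CPM. Spp1 (osteopontin) and Lgals3 (galectin 3) fell 5.18-fold and 5.31-fold in KO tissue, whereas WT levels were 197, 299.6, 257 and 282 and 441, 500.5, 378 and 517 CPM with no steady course.

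The macrophage list was flatter in WT tissue. Its sum was 3052, 3507, 2587 and 2174 CPM, highest 2 to 3 steps in, with a median log2 ratio of -0.84. That direction was not shared by the section: the median was -0.82 in the lower left and 0.43 in the lower right quadrant, 0.24 without the upper left quadrant and 0.12 in the more pigmented spots. Mrc1 and Cd163 were the 2 of 20 measured members that fell. Cd163 was at 27.5, 18.1, 11.8 and 1.35 CPM. Mrc1 was at 103, 101, 63.3 and 44.5 CPM, but its log2 ratio without the upper left quadrant was 0.19. Arg1, the arginase of immunosuppressive macrophages, was at 255, 449, 248 and 39.5 CPM, highest 2 to 3 steps in and 6.45-fold lower at the core than at the rim, so it was not steady. KO Arg1 fell, with 48.6, 34.7, 23.3 and 8.58 CPM.

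T cell genes were low throughout, and in the KO section they fell with depth. Of 18 pan T cell genes 7 reached 500 UMIs in the KO section, and all 7 fell, with a median log2 ratio of -2.32. All 18 genes were lower in the deepest bin. Their summed level was 232, 145, 85.5 and 47.3 CPM. Cd3e, which carries receptor signals into T cells (chromosome 9, 44998735 to 45009663), was at 22.6, 15.7, 8.16 and 5.0 CPM in the KO bins, a fall of 4.52-fold (95% interval 3.73 to 5.48), and Trac, the receptor's alpha constant region, at 25, 15.5, 10.2 and 5.12 CPM. Lck, the kinase that starts receptor signalling, fell 7.65-fold. Step by step, the sum was 232 CPM at the edge, 89.7 CPM at step 5, 41.5 CPM at step 10 and 31.7 CPM at 17 or more steps. The WT section as a whole showed no such slope: the list's sum was 43.4, 48.4, 41.7 and 43 CPM. WT Cd3e was at 2.96, 3.0, 2.69 and 2.37 CPM with 244 UMIs in all. Only 2 of the 18 genes reached 500 UMIs in the WT section. Their median log2 ratio was 0.13 in the lower left and -0.86 in the lower right quadrant. In sums over spots, fewer T cells and less RNA per T cell cannot be told apart.

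CD8 T cell and cytotoxic genes also fell in the KO section, with 322, 201, 150.1 and 104 CPM summed over 14 genes, all 14 lower at the core. The 3 that reached 500 UMIs, Ccl5, Gzma and Cd8a, all fell. Ccl5 made up most of the list's KO sum, with 11161 UMIs against 969 for Gzma and 596 for Cd8a. Both T cell falls were small in the lower left KO quadrant, where the median log2 ratio of measured members was -0.12 for the CD8 and -0.50 for the pan T cell list, against -2.42 and -2.83 in the upper left. Cd8a, the coreceptor's alpha chain, was at 14.6, 7.93, 6.36 and 3.48 CPM, a fall of 4.18-fold (95% interval 3.31 to 5.3). Cd8b1 was at 7.76, 5.07, 3.2 and 1.62 CPM on 321 UMIs and Cd4 at 5.46, 3.05, 1.8 and 0.882 CPM on 195, both below the minimum. WT Cd8a was at 0.912, 1.89, 1.64 and 1.6 CPM on 138 UMIs, and the list summed to 59.8, 60.8, 55.5 and 65 CPM, with 8 of 14 members higher and 6 lower at the core. Most of that WT sum was Ccl5, with 4448 UMIs. The regulatory T cell list, 10 genes, summed to 43.2, 49.5, 45.2 and 49.4 CPM in the KO section. The 2 members that reached 500 UMIs there, Tnfrsf9 and Ikzf2, are also expressed by other cells, and neither was called. Tnfrsf9, a costimulatory receptor, was at 15.2, 26.6, 25.9 and 30.5 CPM in the KO bins and was 2.01-fold (95% interval 1.7 to 2.38) higher at the core, with a step back at 4 to 6 steps that kept it from being called. The other 8 members, Foxp3 among them, were lower in the deepest KO bin and were all under 500 UMIs. Foxp3 itself was at 0.766, 0.788, 0.361 and 0.417 CPM, near the probe background.

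**Figure D3:**
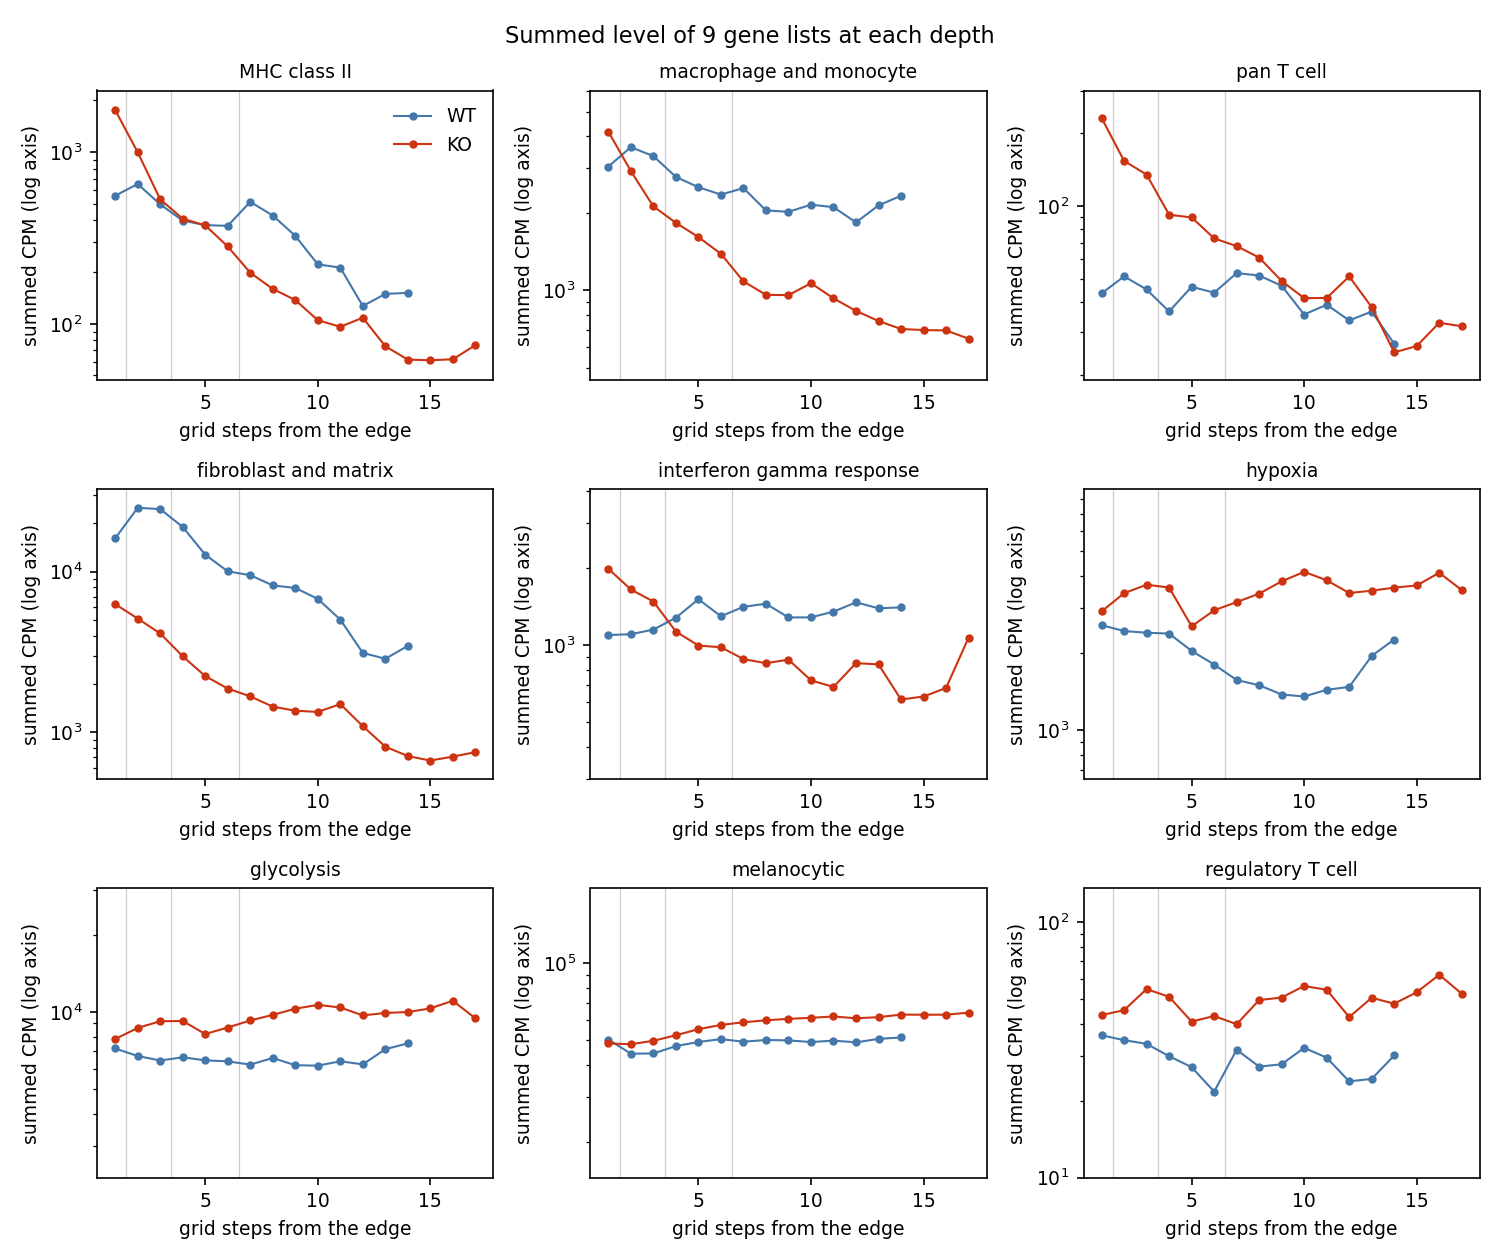
Summed CPM of 9 gene lists (log axes) at each grid step from the edge, WT blue and KO red; the last point pools spots 14 or more (WT) or 17 or more (KO) steps in, and grey lines mark the bin limits. KO MHC class II goes from 1757 CPM at the edge to 75 CPM, and in the WT section fibroblast genes peak at step 2 with 24959 CPM.

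Genes that interferon gamma induces fell in the KO section and leaned the other way in the WT section, a difference that was not tested. In the KO section 14 of 17 measured members fell, the median log2 ratio was -1.71, and all 20 members in the matrix were lower at the core. The sum was 1984, 1569, 1040.3 and 809 CPM. Gbp2, a guanylate-binding protein that attacks intracellular pathogens, fell 5.84-fold (95% interval 5.43 to 6.29), with 173, 132, 60.1 and 29.6 CPM, and Cxcl9, the chemokine that draws CXCR3-positive T cells, 4.67-fold (95% interval 4.24 to 5.13), with 91.8, 45.7, 33 and 19.7 CPM. Cxcl10, a sister chemokine, fell 2.85-fold. Irf1, the transcription factor at the head of the response, was at 157, 119, 74.5 and 52.1 CPM, and Cd274, which encodes the checkpoint ligand PD-L1, at 50.8, 37.4, 20.5 and 15.8 CPM. None of 16 measured WT members (0 of 16) was called, but 13 were higher and 3 lower at the core, with a median log2 ratio of 0.37. The sum there was 1094, 1122, 1358 and 1373 CPM. WT Gbp2 was at 42.9, 45.2, 59.8 and 62.1 CPM and Irf1 at 54.5, 62.2, 73.1 and 73 CPM, and Cxcl9 at 5.64, 6.68, 8.42 and 6.63 CPM, far below the KO rim. The direction was not shared by the whole WT section: the list median was -0.30 to 0.50 in its 2 lower quadrants, against -2.22 to -0.73 over the 4 KO quadrants.

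The machinery that loads MHC class I, which presents peptides to CD8 T cells, went with it. Of 12 measured members 10 fell in the KO section (median log2 -1.75), and all 13 in the matrix were lower at the core. H2-K1, a classical heavy chain, fell 6.82-fold (95% interval 6.33 to 7.35) and H2-T23, a non-classical one, 8.34-fold, though heavy chain genes are near-copies whose probes may share signal. Psmb8, an immunoproteasome subunit, fell 5.64-fold, Tap1, the peptide transporter, 3.23-fold, and Nlrc5, the activator of class I genes, 3.52-fold. B2m, the light chain every class I molecule needs, was at 2989.8, 2598, 2159 and 1731 CPM, lower at each step but by under 2-fold. Among WT bins none of the 12 measured members was called, at a median log2 ratio of -0.04, with B2m at 2513, 2478, 2595 and 2758 CPM. Type I interferon genes, an antiviral set, summed in the KO section to 2309.6, 2151, 2247 and 2328 CPM, and 1 of 16 fell (Oasl2). The WT type I sum was 2511, 2495, 2652 and 2984 CPM with 0 of 16 called.

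**Figure D4:**
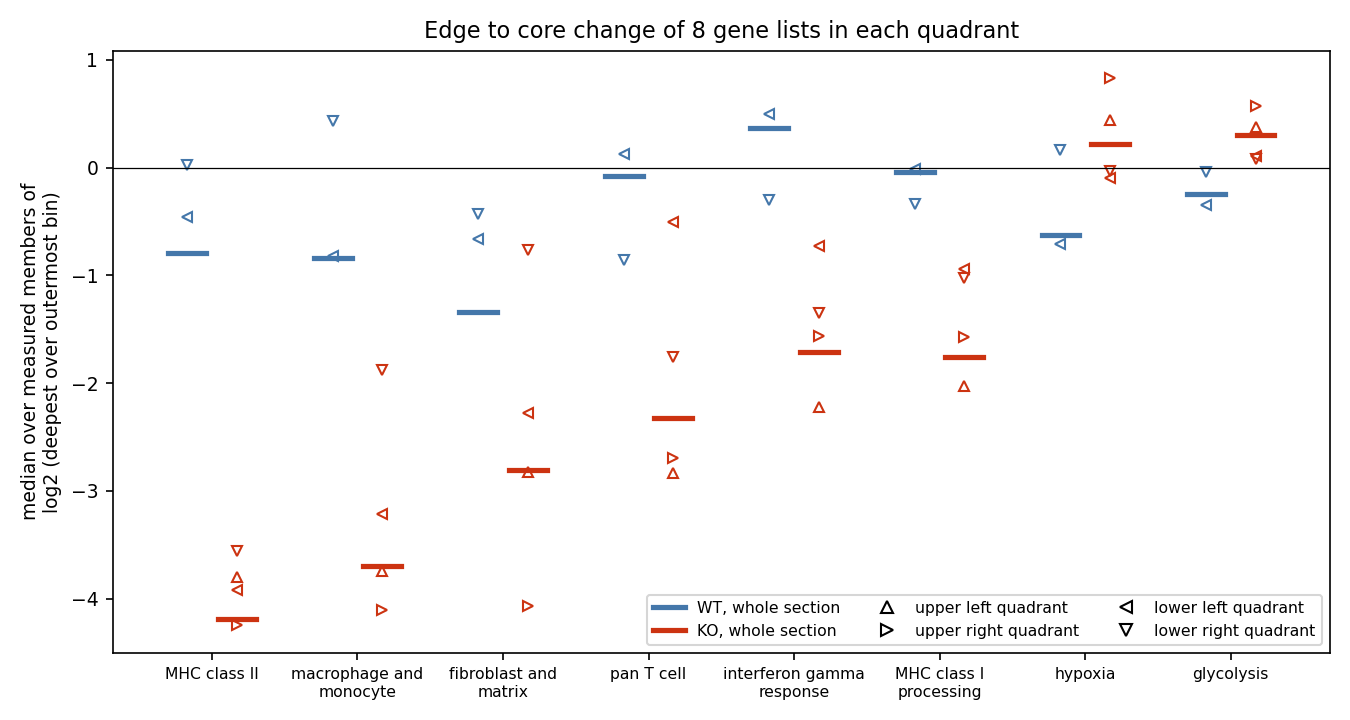
Median log2 ratio of deepest over outermost bin over the measured members of 8 gene lists, for whole sections (bars) and single quadrants (open symbols; WT blue, 2 lower quadrants only, since the upper ones hold fewer than 20 deep spots; KO red, 4 quadrants). Both sections' quadrants lie apart for MHC class II, where KO quadrants run from -4.25 to -3.56 and WT quadrants from -0.46 to 0.02, and overlap for the hypoxia list.

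Fibroblast and matrix genes fell with depth in the KO section and were highest just below the edge in the WT section. In the KO section 19 of 22 measured members fell, at a median log2 ratio of -2.81, and the sum was 6283, 4652, 2403 and 1235 CPM. Col1a1, a chain of type I collagen (chromosome 11, 94936224 to 94953042), was at 1137, 799, 355 and 139.6 CPM, a fall of 8.14-fold (95% interval 7.89 to 8.41), and Col3a1, type III collagen, at 1663, 1022, 326 and 95.3 CPM, a fall of 17.4-fold (95% interval 16.8 to 18.1). Dpt (dermatopontin) and Pi16, marks of resting fascia-type fibroblasts, had the steepest falls of the list, 61.4-fold and 43.5-fold. Fn1 (fibronectin) fell 6.32-fold, and Fbln1, a basement membrane protein, was level at 59.2, 61.9, 60.6 and 61.2 CPM. The WT section held more of this RNA at every depth, with 16113, 24761, 14491 and 6750.0 CPM, and it was highest at 2 to 3 steps, not at the rim. WT Col1a1 was at 4662, 7569, 4147 and 1728 CPM and Col3a1 at 3528, 5429.8, 3422 and 1155 CPM. All 23 members were lower in the deepest than in the outermost WT bin (median log2 -1.34), but Pi16 alone fell at each step. Without the upper left quadrant the WT median was 0.18, and the single lower quadrants gave -0.67 to -0.43. Tnc (tenascin C), a matrix protein of remodelling stroma, was at 148, 285, 159.9 and 133 CPM in the WT section, and fell, with 182, 125, 65.1 and 21.9 CPM in the KO section.

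The summed muscle, fat and red cell lists were higher in the outermost than in the deepest bin of each section. Skeletal muscle genes summed to 905, 859, 98.4 and 52.5 CPM in the KO bins, and 14 of 17 were measured, all lower at the core at a median log2 ratio of -5.42. That median was 0.007 in the lower left KO quadrant and -6.03 to -5.05 in the others. The 6 genes called were Acta1, Ttn, Myh1, Myl1, Mylpf and Des. Others, such as the calcium pump Atp2a1 at 42.5, 48.1, 4.15 and 0.27 CPM, were slightly higher at 2 to 3 steps than at the rim. The last Atp2a1 value is below the probe background. Acta1, skeletal actin, fell 138-fold (95% interval 108 to 178), and its KO level was 229 CPM at step 1, 257 CPM at step 2 and 3.73 CPM at step 5. Its quadrants ranged widely, with log2 ratios of -8.22 to -0.58. WT Acta1 was at 25.7, 22.5, 4.64 and 0.0484 CPM, the last value being 1 UMI, below the probe background. Of the adipocyte list 2 of 5 measured fell in the WT section: Car3, the carbonic anhydrase of adipocytes and muscle, was at 97.9, 14.1, 0.41 and 0.29 CPM and Cfd (adipsin) at 30.8, 4.79, 0.364 and 0.194 CPM, both ending at or below background. KO Car3 fell, with 56.7, 45.6, 3.43 and 1.05 CPM, while Cfd stayed under the minimum of UMIs. Haemoglobin and haem synthesis genes, which read red cells, fell in the KO section in 4 of 4 measured members. Hbb-bs, a beta globin, was at 2025, 1694, 1472 and 782 CPM there and at 237, 186, 93.9 and 187 CPM in the WT section. In the more pigmented spots the KO erythroid median was 0.09, so the list did not fall among them. The WT erythroid sum was 452 CPM at step 1 and 511 CPM at step 11. Its WT median was -0.97 in the lower left and 0.97 in the lower right quadrant. Of the endothelial genes 2 of 15 measured fell in the KO section, Pecam1 and the apelin receptor Aplnr, at a median log2 ratio of -0.67. WT tissue had 12 of 17 measured endothelial genes higher at the core, at a median of 0.15. Quadrants disagreed in both sections, with endothelial medians of 0.81 in the lower left and -0.67 in the lower right of WT tissue and of -1.43 to 0.56 in KO tissue, and the WT median was -0.39 without the lower left quadrant.

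Stromal, muscle and red cell genes moved with the immune genes in the KO section, and their part in those falls was not tested. The median melanocytic share per KO spot was 4.83% at the rim and 6.13% at the core, and the keratinocyte list, with no measured member, summed to 15.8, 9.85, 6.85 and 7.84 CPM in the KO and 7.01, 7.5, 6.65 and 4.79 CPM in the WT section. Restricted to the more pigmented spots, KO list medians were -2.26 for MHC class II, -2.08 for macrophages, -1.11 for T cells, -1.47 for the interferon gamma response and -1.17 for fibroblasts. The falls of these lists were smaller than in all spots and kept their direction. Other KO lists changed sign there, among them erythroid (0.09) and cholesterol synthesis (-0.22). Of the 591 KO falls 574 kept their sign and 79 were called again. Genes that turned include Cd209g (0.20), Cbr2 (0.14) and Ptx3 (0.26).

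The 11 genes that rose toward the core of the KO tumour had a median log2 ratio of 1.16, with 0 at 4-fold. None of the 15 pigment genes was among them. Few kept the call under some settings: 3 of the 11 with holes filled, and 1 in the more pigmented spots. With rows above the median row left out 1 of the 11 was called. All 11 stayed higher at the core under each of these settings. Kcnj13, a potassium channel of pigment cells, rose most, with 113, 118, 241 and 308 CPM, 2.72-fold (95% interval 2.56 to 2.89) higher at the core. S100b, the calcium-binding protein used as a melanoma marker (chromosome 10, 76253836 to 76261319), was at 502, 602, 851 and 1129 CPM, a rise of 2.25-fold (95% interval 2.19 to 2.32), and S100a1, its relative, at 541, 646, 923 and 1123 CPM. Gsta4, which detoxifies products of lipid oxidation, was at 499, 530.1, 811 and 1022 CPM, and Cited1, a transcriptional co-regulator of melanocytes, at 232, 299, 399 and 491 CPM. Aldoc, the brain-type aldolase of glycolysis, rose, with 37.1, 44.3, 63.1 and 94.8 CPM, and was the only member of any list to rise in the KO section. Pdzk1ip1, Pak3, Smtnl1 and Cmtm5 completed the rises that could be named, with log2 ratios of 1.16, 1.16, 1.29 and 1.01; an 11th is a predicted gene. Step by step S100b was at 502 CPM at the edge, 1283 CPM at step 14 and 1129.9 CPM at 17 or more steps. None of these genes was called in the WT section, where S100b was at 400.3, 376, 413 and 362 CPM and Gsta4 at 417, 382, 431 and 371 CPM. Dct, a pigment enzyme, was 1.35-fold (95% interval 1.34 to 1.35) higher at the KO core without being called, and Mlana was at 611, 665, 589 and 528 CPM.

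None of the 10 WT rises was among the KO rises. Slc24a4, an ion exchanger, was at 27.9, 34.3, 42 and 92.2 CPM, 3.3-fold (95% interval 2.99 to 3.65) higher at the core. Dppa4, an embryonic stem cell gene, was at 17.2, 21.5, 27.6 and 54.9 CPM, and Tex101, a testis surface protein, at 60.2, 67.9, 84.3 and 172 CPM. Rhox2d and Xlr, X-linked germline genes, were at 10.6, 11.2, 15.4 and 24.4 and 16.8, 19.9, 25.4 and 40.2 CPM. The 2 lower quadrants of the section differed: Dppa4 gave log2 ratios of 0.07 to 1.46 and Tex101 of -0.02 to 1.44. Of the 10 rises 5 were higher at the core in both of these quadrants. With rows above the median row left out 0 of the 10 were called, and 9 were higher at the core. Igha, the heavy chain of IgA from plasma cells, rose, with 5.59, 12.3, 15.3 and 17.4 CPM, but was lower at the core without the lower left quadrant (log2 -0.37). KO Tex101 stood at 40.6, 47.1, 46.5 and 34.6 CPM and Dppa4 at 11.5, 15.6, 14.6 and 10.6 CPM. Rhox2d fell there, with 10.2, 8.52, 6.45 and 3.77 CPM, and was the single gene called in opposite directions (0.0102% of 9786 genes). With the frame no longer counted as an edge, its KO log2 ratio was 0.046.

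**Figure D5:**
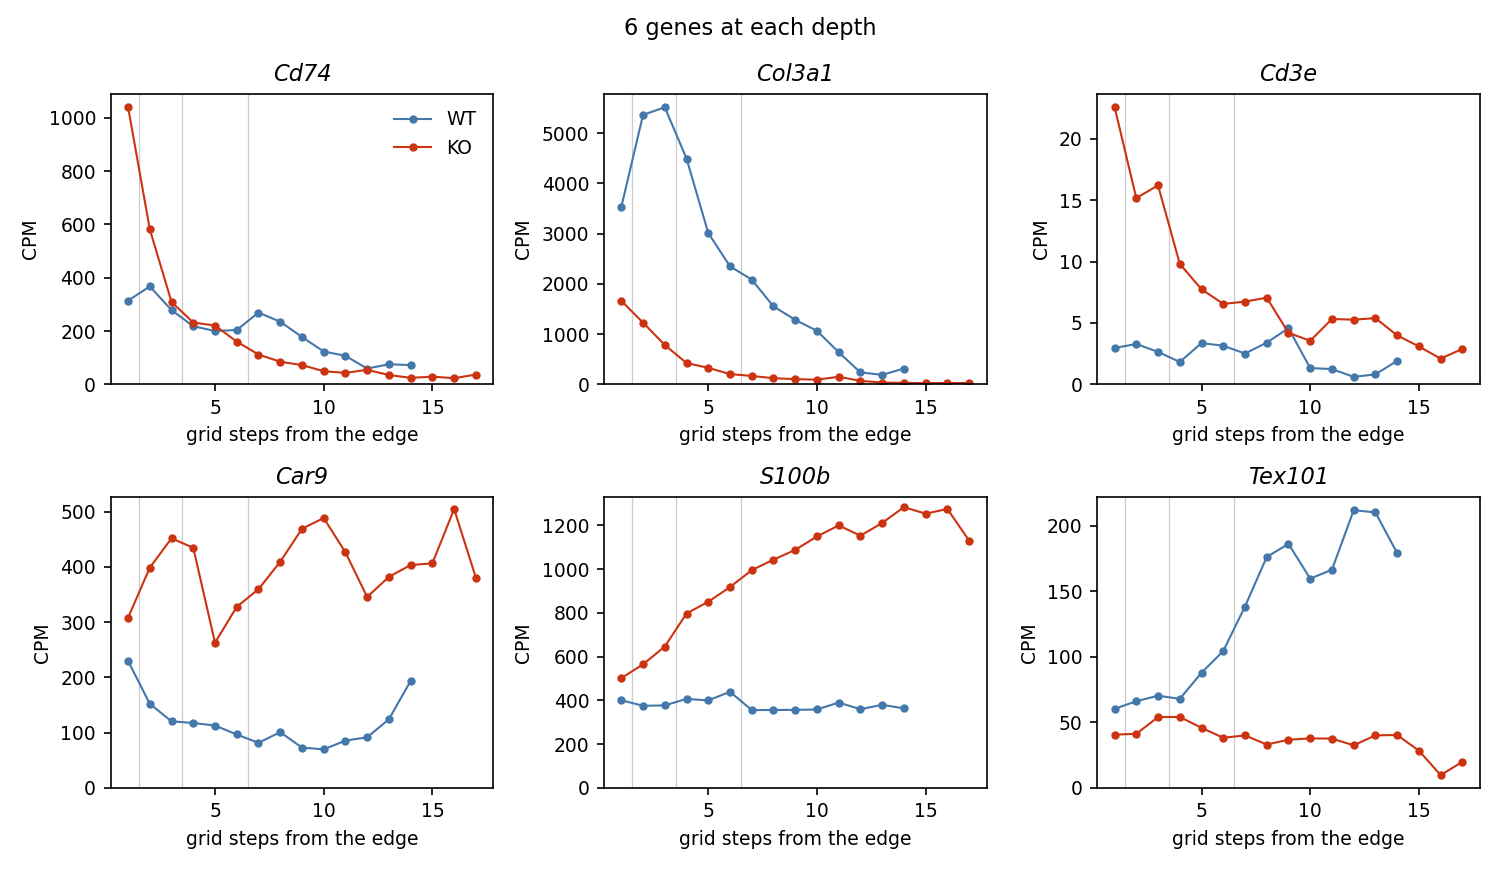
CPM of 6 genes at each grid step from the edge, WT blue and KO red, linear axes from 0; the last point pools spots 14 or more (WT) or 17 or more (KO) steps in. Cd74 and Cd3e start high only at the KO edge, Col3a1 peaks 3 steps into the WT section at 5513 CPM, and S100b climbs in the KO while Tex101 climbs in the WT section.

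No gene rose at least 2-fold in both sections (0 of 9786 genes, 0.0%), while 319 rose (3.26%) and 303 fell (3.1%) at each step by any size in both. A steady course of any size ran up in WT and down in the KO section for 75 genes (0.766%) and the other way for 38 (0.388%). Rises of at least 1.5-fold at a steady course were shared by both sections for 5 genes, named here after their values were seen: Cited1, Rhox5, Apol9b, Slc25a34 and Ccdc92. Rhox5, an X-linked homeobox gene active in many tumour lines, was at 376, 381, 463 and 602 CPM in WT and 506, 570.2, 699 and 794 CPM in the KO bins. Cited1 was at 285, 286, 330.3 and 453 CPM in the WT bins, 1.59-fold (95% interval 1.53 to 1.64) higher at the core.

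Falls shared by both sections numbered 35 (0.358% of 9786 genes), 77.8% of the 45 WT falls and 6.28% of the 557 KO falls that were measured in both. Cd209f and Cd209g, lectins of resident macrophages, were at 45.6, 26.5, 13.6 and 2.08 CPM and 14.5, 7.18, 3.64 and 0.581 CPM in WT and at 80.2, 43.9, 18.6 and 1.5 and 26.4, 14.4, 5.72 and 0.637 CPM in the KO section. Efemp1 and Clec3b, secreted by loose connective tissue, fell 8.22-fold and 5.01-fold in WT and 64.9-fold and 50-fold in the KO section. Ptx3, a pattern recognition protein, and Igfbp5, a binder of growth factors, fell 6.12-fold and 7.29-fold in WT tissue and 29.7-fold and 26.4-fold in the KO section. Hp (haptoglobin) and Lrg1, proteins of acute inflammation, were at 33.4, 24.9, 6.74 and 4.94 and 34.3, 15, 10.9 and 7.16 CPM in WT and at 60, 21.5, 7.66 and 2.82 and 29.7, 10.2, 3.74 and 1.25 CPM in the KO section. Clec10a, a lectin of dendritic cells and macrophages, fell, with 16.1, 11.7, 7.83 and 4.36 CPM among WT bins and with 37.7, 16.6, 8.2 and 1.25 CPM in the KO section. None of the 35 was shared without the upper left quadrant of each section: WT Cd209f was then at a log2 ratio of 0.18 and Clec3b at 0.30. Retnla, Vegfd and Efhd1 fell in WT tissue and were under 500 UMIs in the KO section, where Retnla was at 17.3, 8.52, 3.65 and 0.392 CPM against 39.8, 23.2, 10.2 and 0.194 CPM in the WT section.

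In the WT section 5 of 10166 genes (0.0492%), Saa3, Treml4, Sorcs2, Cxcl3 and Cxcl5, were at least 2-fold higher in a middle bin than in both end bins, and 0 of 9976 (0.0%) in the KO section. Saa3, an acute-phase protein, was at 34.6, 89.9, 33 and 23.1 CPM in the WT bins. Treml4, a receptor of myeloid cells, was at 5.3, 13.3, 5.05 and 3.82 CPM and Cxcl3, a neutrophil chemokine, at 5.64, 11.6, 4.51 and 1.16 CPM. Cxcl5, another such chemokine, was at 8.84, 18.1, 8.65 and 5.56 CPM, and Sorcs2, a sorting receptor, at 12.3, 25.1, 10.3 and 5.52 CPM. Hbb-bt, a beta globin, was the 1 WT gene (0.00984%) at least 2-fold lower in a middle bin than in both end bins, with 19.2, 14, 6.1 and 12.4 CPM. KO Saa3 instead fell at each step, with 183, 72.4, 26.2 and 6.81 CPM.

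Hypoxia genes leaned lower at the WT core and higher at the KO core, most of them without being called. In the WT section 24 of 25 list members in the matrix were lower at the core, at a median log2 ratio of -0.63 over 24 measured, and 2 fell. Car9 (chromosome 4, 43507026 to 43513729) was at 229.8, 138, 110.1 and 94 CPM, a fall of 2.45-fold (95% interval 2.32 to 2.58), and Bnip3, a mitophagy receptor, at 101, 78.5, 70.4 and 49.7 CPM. In the KO section both were higher at the core without being called, Car9 at 308, 423, 347 and 413 CPM and Bnip3 at 127, 168, 158 and 222 CPM, and Vegfa was at 284, 376, 333 and 397 CPM against 207, 164, 162 and 119 CPM in the WT section. The KO list median was 0.22, with 17 of 23 measured members higher, and was -0.059 with rows above the median row left out. The 4 KO members that fell, Lox, Loxl2, Egln3 and Angptl4, include the lysyl oxidases Lox and Loxl2, which cross-link collagen: Lox was at 35, 26, 12.6 and 3.26 CPM in the KO bins and was at 134, 206, 120.2 and 29.2 CPM in the WT bins. WT Car9 did not keep falling: it was lowest 10 steps in, at 69.7 CPM, and 194 CPM at 14 or more steps. The summed WT hypoxia list went the same way, with 1353 CPM at step 10 and 2260 CPM at 14 or more steps. KO Car9 went up and down, with 452 CPM at step 3, 263 CPM at step 5, 488 CPM at step 10 and 380.3 CPM at 17 or more steps. Quadrants of both sections differed in sign, with list medians of -0.71 to 0.17 in WT and -0.10 to 0.83 in the KO section. Of the glycolysis genes, 10 of 12 measured members were lower at the WT core (median -0.24) and 11 of 13 higher at the KO core (median 0.31), Aldoc alone being called. The WT glycolysis sum was 7187 CPM at step 1, 6158 CPM at step 10 and 7525 CPM at 14 or more steps. Its WT median was -0.35 in the lower left and -0.04 in the lower right quadrant. Pgk1, phosphoglycerate kinase, was at 1141, 1017, 1055 and 1105 CPM in WT and 1200.3, 1377, 1459.6 and 1782 CPM in the KO bins.

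Hypoxia-inducible factors bind the core letters ACGTG or GCGTG, and 3 called members with a RefSeq promoter show where these fall in the 250 bases before the start (capitals, either strand, gene's own strand printed, GRCm38.p6). They are Car9, chr4:43506776-43507025 (plus strand), Bnip3, chr7:138909507-138909756 (minus strand), and Egln3, chr12:54203875-54204124 (minus strand), an oxygen sensor that is itself a target.
Car9: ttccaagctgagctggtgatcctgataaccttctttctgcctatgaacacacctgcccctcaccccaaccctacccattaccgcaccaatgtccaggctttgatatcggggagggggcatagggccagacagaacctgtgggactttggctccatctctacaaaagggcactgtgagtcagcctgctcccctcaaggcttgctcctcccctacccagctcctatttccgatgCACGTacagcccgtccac
Bnip3: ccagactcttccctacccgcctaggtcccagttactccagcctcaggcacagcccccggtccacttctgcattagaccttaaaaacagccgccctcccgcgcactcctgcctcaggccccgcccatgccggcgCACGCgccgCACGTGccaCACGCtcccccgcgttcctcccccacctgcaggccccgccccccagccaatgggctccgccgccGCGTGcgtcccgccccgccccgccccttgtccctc
Egln3: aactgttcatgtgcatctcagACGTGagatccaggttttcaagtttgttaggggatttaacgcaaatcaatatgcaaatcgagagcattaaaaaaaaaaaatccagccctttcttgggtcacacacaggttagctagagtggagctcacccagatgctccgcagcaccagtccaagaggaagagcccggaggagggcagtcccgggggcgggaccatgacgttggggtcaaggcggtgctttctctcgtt
Car9 and Egln3 hold 1 match each and Bnip3 5, of which 2 overlap in the palindrome CACGTG, a letter string that other factors also bind. Of the 25 list members in the matrix 18 had a RefSeq promoter and 17 of these held a match, against 38.6% of 32851 promoters. Lox, Loxl2 and Angptl4 are named without a sequence. Egln3 fell in the KO section while Car9 and Bnip3 were higher at its core without being called. In the WT section all were lower at the core, with log2 ratios of -1.29 for Car9, -1.02 for Bnip3 and -0.93 for Egln3. Egln3 was not called there.

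Lists of basic cell functions held few or no called genes. Of 19 measured proliferation genes none was called in either section, and medians were 0.11 in WT and 0.13 in the KO section, with Mki67 at 406, 399, 426 and 411 and 554, 557, 588 and 612 CPM. Respiratory chain genes were higher at the core for 20 of 22 in WT and 17 of 22 in the KO section, at medians of 0.10 and 0.19. All 19 cholesterol synthesis genes were higher at the KO core (median 0.25), led by Nsdhl and Sqle at log2 ratios of 0.46 and 0.45, and 6 of 19 at the WT core (median -0.08), none called. The KO cholesterol median ranged from -0.09 in the lower right to 0.69 in the lower left quadrant and was -0.22 in the more pigmented spots. The ATF4 and endoplasmic reticulum stress list had medians of 0.04 and 0.02. Of 14 measured immediate early and heat shock genes 3 fell in the KO section, Egr1, Junb and Hspb1, and 0 in the WT section. Pmel, a scaffold of pigment granules, was at 6759, 5731, 6066 and 6595 CPM in WT and 4864, 4491, 4821 and 4989 CPM in the KO bins and Tyrp1, a pigment enzyme, at 7980.0, 7072, 7681 and 7803 and 7873, 8122, 8831 and 9628 CPM. Of the neutrophil, B and plasma cell, dendritic cell, pericyte and Schwann cell lists at most 1 gene was called per section, but few members of the first 3 could be: 2 of 13, 1 of 13 and 3 of 11 reached 500 UMIs in KO tissue. Over all their members 11 of 13 neutrophil, 8 of 13 B and plasma cell and 9 of 11 dendritic cell genes were lower at the KO core, and the sums were 2.47-fold, 2.06-fold and 1.03-fold lower. The dendritic cell sum was mostly Fscn1, with 43733 KO UMIs and a log2 ratio of 0.12, so it does not show the course of the other members. Genes of organs outside the section, 15 in number, gave a median of 4 to 7 UMIs per WT bin and 5 to 18 per KO bin, so a level of a few such UMIs is at the background of the probes.

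The authors' deposited table gives Moran's I, a score of how far a gene's signal is shared by neighbouring spots. In the authors' deposited table the genes called here as falling had a median of 0.424 in WT tissue and 0.327 in the KO section. Genes called as rising had 0.287 and 0.475, against 0.173 and 0.160 over all genes tested. The calls required a change with position in the same sections, so higher scores were built in and are no independent support.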

How the data were processed

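Visium CytAssist libraries of 1 WT and 1 KO tumour section were analysed. The authors deposited UMI counts per gene and spot from Space Ranger 2.1.0, per the file headers, with a table of grid positions and tissue flags. The submitters' processing notes also name featureCounts and mm10. A spatial enrichment score (Moran's I) per gene was deposited by the authors, and its normalization is not given in the sources used here.

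Grid depth was computed by a breadth-first search, and counts of spots with at least 5000 UMIs were summed per bin (python 3.11.15, numpy 2.4.6, pandas 2.3.3, scipy 1.17.1). Log2 ratios carry a pseudocount of 0.5 UMIs. Of the 19465 genes in the matrix those with at least 500 UMIs in a section were tested. Symbols borne by several rows and predicted genes are not named. Gene lists (29 lists, 480 different genes, 432 in the matrix) and the depth rule were chosen with earlier results of these data known. Named genes are the 12 most changed per direction and section, the 15 most changed in both, the 12 with the highest middle bin, the 3 most counted and the extreme and doubly called members of each list, genes called in opposite directions, and fixed markers. List members called in 1 section only, Tnfrsf9, Ccl8, Spp1, Lgals3, Clec10a, Rhox5, Apol9b, Slc25a34 and Ccdc92 were named after their values were seen. TMM factors came from edgeR 4.0.16 in R 4.3.3. Promoters are RefSeq's. Some results are not reported here.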

Additional observations from a re-analysis of the deposited data

Results flagged for a closer look

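These results point in opposite directions in the sections, and the difference was not tested, since each genotype has 1 section. The median log2 ratio of deepest over outermost bin of the glycolysis list was -0.24 in WT and 0.31 in KO tissue. In the lower right WT quadrant it was -0.04, and the WT glycolysis sum was back at 7525 CPM 14 or more steps in. The median log2 ratio of the interferon gamma response list was 0.37 in WT and -1.71 in KO tissue. Its WT median was 0.50 in the lower left and -0.30 in the lower right quadrant, and none of 16 measured WT members was called. Rhox2d had a log2 ratio of 1.20 in WT and -1.44 in KO tissue, where the value was 0.046 once the frame was not counted as an edge.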

How the results depend on the processing

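The counts were 10 rising and 63 falling WT genes, 11 rising and 591 falling KO genes, and 35 falling and 0 rising in both. No paired analysis was possible because each genotype has 1 section. With 10000 UMIs per spot 31 WT genes fell and 14 in both. With the frame not an edge 23 KO genes rose and KO Rhox2d was at 0.046, and without spots nearest the frame 19 rose. With holes filled 116 WT genes fell, 7 KO genes rose (3 of the main 11 among them) and 72 fell in both. Bins of 1-2, 3-5, 6-8 and 9 or more steps gave 351 WT falls, 182 in both and WT Igha at -0.92, and 3 bins gave 390 and 193. Median-of-ratios scaling gave 37 WT falls. Equal weight per spot gave 130 WT falls, 29 KO rises and 79 falls in both.

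In the same order (WT rising, WT falling, KO rising, KO falling, both rising, both falling), a minimum of 100 UMIs per gene gave 22, 167, 20, 1308, 1 and 87, a minimum of 1 UMI 111, 898, 248, 1639, 6 and 150, and no fold limit 1208, 805, 1702, 2094, 319 and 303. A minimum of 2000 UMIs gave 5 WT rises, 18 WT falls, 202 KO falls and 10 in both. A 1.5-fold limit gave 30 WT rises, 132 WT falls, 103 KO rises, 5 rises and 64 falls in both. Steps all outside counting error left 4 WT rises, 23 WT falls, 6 KO rises and 16 falls in both.

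Among the more pigmented spots 5 WT genes rose and 3 fell, 7 KO genes rose and 89 fell, and 0 fell in both. Main calls among them were 4 of 10 WT rises, 2 of 63 WT falls, 1 of 11 KO rises and 79 of 591 KO falls. There the WT log2 ratios turned for Aplnr (0.041), Lrg1 (0.11), Marco (0.37), Mrc1 (0.026) and the fibroblast list (0.031), and the KO ratios for Alas2 (0.064), Cbr2 (0.14), Cd209g (0.20), Hbb-bs (0.11), Hbb-bt (0.38), Loxl2 (0.61), Ptx3 (0.26), Tnxb (0.20) and the erythroid list (0.085). The rows below the median row alone, chosen after seeing the data, gave 2 WT rises, 41 WT falls, 4 KO rises, 282 KO falls and 20 in both. Few of these were main calls: 0 of the 10 WT rises, 4 of the 63 WT falls and 1 of the 11 KO rises. Of the 591 KO falls 268 were called again. WT Aplnr was then at 0.19, Efhd1 at 0.45, Hp at 0.71 and Pnma5 at -0.15.

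Leaving out 1 quadrant at a time gave 3 to 16 WT rises, 5 to 218 WT falls, 8 to 26 KO rises, 445 to 478 KO falls and 0 to 131 falls in both. Over these 4 sets, log2 ratios changed sign for WT Aplnr (-1.87 to 0.48), C3 (-4.47 to 0.57), Cd209f (-5.90 to 0.18), Cd209g (-7.05 to 0.17), Clec3b (-4.65 to 0.30), H2-Eb1 (-2.98 to 0.023), Hp (-4.79 to 0.086), Lrg1 (-3.33 to 0.70), Mrc1 (-2.05 to 0.19), Pi16 (-5.71 to 0.62) and the fibroblast list (-2.98 to 0.18), the highest value of each without the upper left, and for Igha (-0.37 without the lower left, up to 2.69). These sign changes are of called genes and of lists with a median past 2-fold. Counting medians of any size, 18 of 26 WT and 10 of 26 KO lists changed sign under at least 1 alternative, among them WT macrophage (up to 0.24), MHC class II (0.13), erythroid (0.38), endothelial (down to -0.39) and B and plasma cell (-1.43) and KO cholesterol synthesis (-0.22), as did 156 of 237 WT and 67 of 237 KO named genes, called or not. The cause of these changes was not tested. Quadrants and spots share 1 section, so none of this measures the spread between animals.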
